A study of Homo sapiens with 21 samples.

Results

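The members described here were the regions bound by AGO2 whose sequence held the reverse complement of bases 2 to 8 of miR-17-5p, the letters GCACTTT. They were chosen by sequence alone, and clusters that the deposited files class as miRNA were left out. They numbered 1711 of 74281 such clusters over 6 AGO2 libraries, counted per library. The series as a whole listed 854366 clusters outside that class in 17 libraries of 5 proteins.

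All cells were Flp-In T-REx 293, an established human kidney-derived line, with a stably integrated transgene for the tagged protein (FLAG-HA-AGO2). They received 4-thiouridine at 100 µM for 8 to 12 h, followed by UV crosslinking at 312 or 365 nm with 0.3 J/cm2. This uridine analogue crosslinks to bound protein, and reverse transcription then tends to put C where T is written in the genome. The fluorescent protocol gave 1 library at 0.15 U/µl RNase I and 1 at 1.5 U/µl. The radiolabelled protocol with RNase T1 at 1 U/µl gave 2 libraries without a urea gel (no gel A and B) and 2 with it (gel A and B). The labels do not say whether A and B came from separate cultures, so p-values measure the spread between libraries, which may be technical. Protocol and enzyme differed together between the fluorescent and the radiolabelled libraries. Reads in all clusters were 295889 and 335870 in the fluorescent libraries, 929424 and 608223 in no gel A and B, and 183250 and 77572 in gel A and B. Cluster lists measure binding and not expression, so markers of the cell line were not read from them. A file listed no cluster under 5 reads, so a missing cluster is not a count of 0.

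AGO2 is the Argonaute protein that holds a mature microRNA and is led by it to target mRNAs. Bases 2 to 8 of the microRNA, the seed, pair with the target, most often in the 3' UTR, and an A just after the match on the target strand is favoured. Paired targets are translated less and decayed faster. The miR-17 family comes from the clusters MIR17HG, MIR106A-363 and MIR106B-25, and is known for cell cycle, survival and TGF-beta targets. Its mature sequences, from RefSeq on GRCh38.p14, are shown because they define the members, with the shared seed in capitals.
miR-17-5p: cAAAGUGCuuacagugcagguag
miR-106a-5p: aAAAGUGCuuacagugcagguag
miR-20a-5p: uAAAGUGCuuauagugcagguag
miR-93-5p: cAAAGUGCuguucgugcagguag
miR-106b-5p: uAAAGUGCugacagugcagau
The genes lie on chromosome 13 (MIR17 and MIR20A), chromosome 7 (MIR93 and MIR106B) and chromosome X (MIR106A). RefSeq lists 3 further mature sequences with this seed, miR-20b-5p, miR-519d-3p and miR-526b-3p.

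The sites on which the results turn are shown next, at most 30 bases each as the deposited clusters give them, with the match in capitals. They were picked as the sites of the genes found in all 6 libraries, of most-read members, of reported targets and of regions named in the gel comparison (SESN2). The AGO2 site is not shown.
SHOC2: ctgctgaactaaatGCACTTTtcccca
MIDN: cgatatgtcattatGCACTTTacagatgag
LCOR: tgtaatattcaggtGCACTTTt
SMC4: aaattGCACTTTtggaagccc
SESN2: aggaccgattccagGCACTTTctgtagcaa
EGLN3: ccttacttGCACTTTatg
WEE1: atatcccactgggaGCACTTTgtaggcatt
E2F1: ggggggctctaactGCACTTTcggccc
NCKAP1: ataaattgcacactGCACTTTctgagttat
LINC00116: aatgacttcttcttGCACTTTatg
TGFBR2: agccaataacatttGCACTTTattaatg
unannotated cluster: gattcccggccaatGCACTTTcattt
In hg38 the SHOC2 window lies at chr10:111012948-111012974 on the plus strand, and the MIDN window at chr19:1257713-1257742, also plus. The LCOR window is at chr10:96958995-96959016 (plus), SMC4 at chr3:160431752-160431772 (plus) and SESN2 at chr1:28282072-28282101 (plus). EGLN3 is at chr14:33925554-33925571 (minus), WEE1 at chr11:9589068-9589097 (plus) and E2F1 at chr20:33676333-33676359 (minus). The files class the SMC4 and NCKAP1 sites as coding, LINC00116 as the exon of a long noncoding RNA, and the other named genes' sites as 3' UTR. NCKAP1, LINC00116 and TGFBR2 were shown from radiolabelled libraries, whose coordinates are of another build and are not given.

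Matches to the seed were found in the AGO2 clusters more often than the same letters on the opposite strand. Members were 76 of 2283 clusters at 0.15 U/µl (3.33%, 95% Wilson interval 2.67 to 4.15) and 60 of 2209 at 1.5 U/µl (2.72%, 2.12 to 3.48). They were 699 of 38787 in no gel A (1.80%, 1.67 to 1.94) and 534 of 22326 in no gel B (2.39%, 2.2 to 2.60). In gel A they were 225 of 6527 (3.45%, 3.03 to 3.92) and in gel B 117 of 2149 (5.44%, 4.56 to 6.49). The largest share was in the library with the fewest clusters and the smallest in the library with the most. Intervals cover counting error only. The opposite-strand letters were in 5, 5, 57, 35, 10 and 4 clusters of these libraries in the same order. The ratio of members to opposite-strand clusters was thus 15.2, 12.0, 12.3, 15.3, 22.5 and 29.3.

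**Figure D1:**
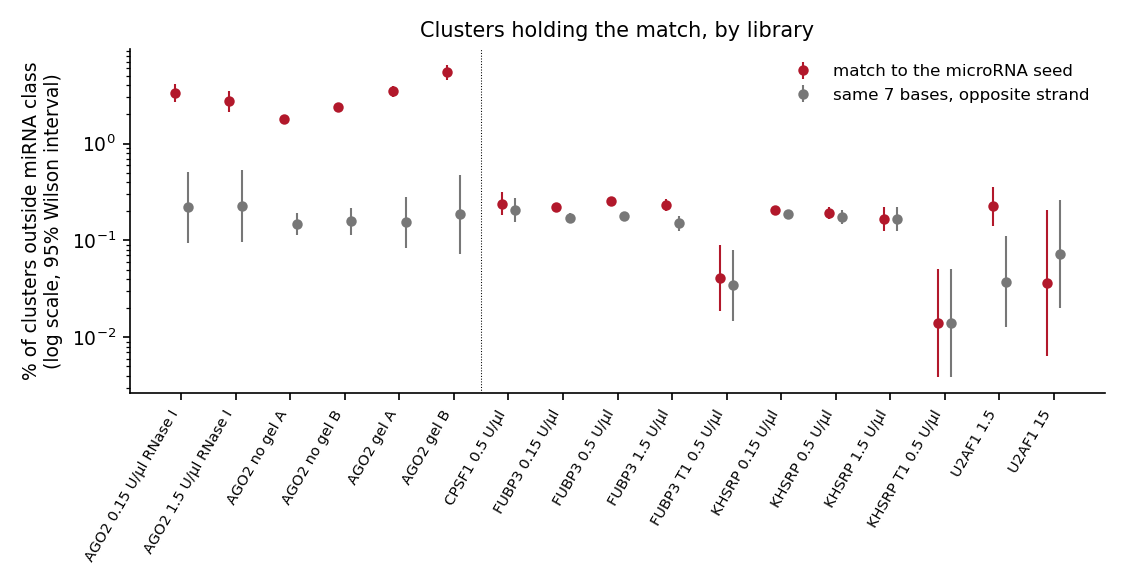
Share of clusters outside the miRNA class that hold the seed match (red) or the same 7 bases on the opposite strand (grey), on a log axis with 95% Wilson intervals, for the 6 AGO2 libraries and the 11 libraries of other proteins. The AGO2 shares are 1.80% to 5.44%, and those of the other proteins 0.0140% to 0.252%.

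In the 11 libraries of CPSF1, FUBP3, KHSRP and U2AF1 the match was in 0.0140% to 0.252% of clusters. The 2 RNase T1 libraries among them had 6 and 2 such clusters. The ratio to the opposite strand there was 0.500 to 1.54, except in U2AF1 at 1.5 U/ml, with 18 clusters against 3. Members were more numerous than opposite-strand clusters in 6 of 6 AGO2 libraries, by 4.07 ± 0.51 on the log2 scale (SD, n = 6). The two-sided exact sign-flip test over libraries gave p = 0.03125, the smallest that 6 libraries allow, and 0.09375 after Benjamini-Hochberg adjustment over 9 measures.

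Among 11 families counted in the same way, the miR-17 match was the third most frequent at 0.15 U/µl and the second most frequent in the other 5 libraries. At 0.15 U/µl it followed miR-15/16 (106 clusters) and let-7 (89), and at 1.5 U/µl miR-15/16 (82). In no gel A and B it followed miR-15/16, with 784 and 586 clusters. In gel A and B it lay next to miR-19, with 228 against 225 clusters and 118 against 117. The 4 families chosen as restricted to other tissues (miR-122, miR-1, miR-133a and miR-223) had 0 to 75 clusters per library.

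The microRNAs themselves were also in the files, as clusters of class miRNA holding a 16-nt stretch of the mature sequence. Those of miR-20a, miR-93, miR-106b and of miR-17 or miR-106a, which share that stretch, were found in all 6 libraries. Together they held 12.7% and 18.3% of all cluster reads at 0.15 and 1.5 U/µl, 4.73% and 6.53% in no gel A and B, and 5.49% and 5.99% in gel A and B. On that scale both fluorescent libraries stood above the 4 radiolabelled ones. The whole miRNA class, of any family, did not follow that order. It held 33.0% and 44.5% of all cluster reads in the fluorescent libraries and 34.9% and 40.4% in no gel A and B. In gel A and B it held 52.3% and 59.7%. Within the miR-17 family, miR-93 was the most read in both fluorescent libraries (13193 and 22487 reads), and miR-20a in the other 4 (20908, 17417, 4298 and 2490 reads). No cluster held the stretch of miR-20b, miR-519d or miR-526b.

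Members held few reads each and few held many. The median was 8 and 9.5 reads at 0.15 and 1.5 U/µl, 12 in both libraries without a gel and 10 in both with it. Members took 0.707% and 0.577% of reads outside the miRNA class in the fluorescent libraries. In no gel A and B they took 4.49% and 5.42%, and in gel A and B 4.79% and 5.01%. The fluorescent values lay below all 4 others, whereas the shares of clusters overlapped. The 10 most-read members held 58.3% and 58.6% of member reads in the fluorescent libraries and 27.0% to 32.0% in the radiolabelled ones.

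Most members of the fluorescent libraries lay in 3' UTRs, the usual place of microRNA sites. The 3' UTR share of members was 76.3% and 73.3% at 0.15 and 1.5 U/µl, 47.8% and 50.4% in no gel A and B, and 59.1% and 63.2% in gel A and B. Other clusters of the same libraries had 39.9%, 30.9%, 43.6%, 47.4%, 52.1% and 57.3%. Members were higher in 6 of 6 libraries, by 16.5 ± 17.9 percentage points (SD), with the range from 2.99 to 42.4. The exact sign-flip test gave p = 0.03125, adjusted 0.09375, so the difference did not pass 0.05 after adjustment. Against clusters matching 6 other expressed families, members were higher in 4 of 6 libraries (adjusted p = 0.625, exact sign-flip test over 8 measures).

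**Figure D2:**
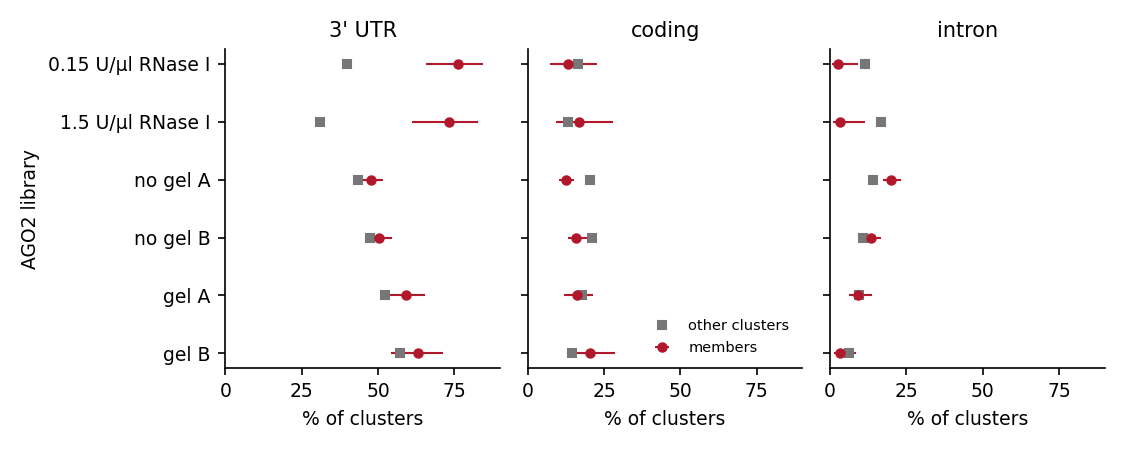
Share of members (red, 95% Wilson intervals) and of all other clusters outside the miRNA class (grey squares) in 3' UTRs, coding sequence and introns, for each AGO2 library. The 3' UTR share of members is above that of other clusters in all 6 libraries, from 47.8% against 43.6% in no gel A to 73.3% against 30.9% at 1.5 U/µl.

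Intronic members were 2 and 2 in the fluorescent libraries, 140 and 72 in no gel A and B (20.0% and 13.5%), and 21 and 4 in gel A and B (9.33% and 3.42%). The difference from other clusters ran both ways, with members higher in 2 of 6 libraries (adjusted p = 0.442, exact sign-flip test). Coding members made up 12.6% to 20.5%, again higher than other clusters in 2 of 6 (adjusted p = 0.598, exact sign-flip test). Median reads were higher in members in 5 of 6 libraries (adjusted p = 0.169, exact sign-flip test). The median T-to-C fraction of a cluster's reads was 0.800 to 1.00 in members and in other clusters (adjusted p = 0.750, exact sign-flip test). Within 3' UTR clusters it was lower in members in 6 of 6 libraries, by a mean difference of -0.062, and median reads were higher in 6 of 6, by 0.71 on the log2 scale (exact sign-flip p = 0.03125, adjusted 0.05625 for each).

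The base after the match was A in 43.8% and 37.3% of matches at 0.15 and 1.5 U/µl. It was A in 40.9% and 39.9% in no gel A and B, and in 45.1% and 40.2% in gel A and B. As a control, the 5 letters ACTTT without a C before them, in other clusters, were followed by A in 12.2%, 18.8%, 22.4%, 24.4%, 23.4% and 18.9%. The groups did not overlap, and the difference was 21.2 ± 5.6 percentage points (SD, n = 6), higher in 6 of 6 libraries (exact sign-flip p = 0.03125, adjusted 0.09375). In the libraries of other proteins the full match was followed by A in 25.7% of 1642 matches. Members minus matches to other expressed families was -4.22 ± 3.57 points (SD, n = 6), below 0 in 6 of 6 libraries (adjusted p = 0.250, exact sign-flip test over 8 measures).

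The base before the match, opposite base 9 of the microRNA, was T in 76.3%, 64.4%, 69.7%, 71.5%, 77.4% and 82.9% of matches, in the order of libraries used above. In the libraries of other proteins it was T before 39.8% of 1654 matches. Before AGO2 matches to let-7 it was T in 66.1% to 80.9%, before those to miR-92/25 in 71.7% to 84.4% and before those to miR-15/16 in 39.1% to 56.0%. It was T in 40.3% to 52.2% before matches to miR-19, 17.6% to 40.8% before miR-103a and 16.7% to 52.4% before miR-30. The miR-30 values in the fluorescent libraries rest on 12 matches each. Members thus lay near let-7 and miR-92/25 and above miR-15/16, miR-19, miR-103a and miR-30, a description with no test. C before the match was seen in 0.000% to 2.44% of cases. This was not particular to members, with at most 2.22% in the libraries of other proteins. Before AGO2 matches to miR-92/25 it was 1.27% to 2.61%.

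The deposited files give a peak location per cluster. The letter there was T in 28.3% to 37.3% of clusters, so it was not read as a converted base, and what exactly the column marks is not given in the sources used here. An offset of the column would shift the positions that follow. For members it lay just before the match, at the base directly before it in 22.1% and 23.3% of matches in the fluorescent libraries, 22.2% and 25.7% in no gel A and B, and 25.2% and 38.5% in gel A and B. The median was 1 or 2 bases before the first matched base in every library. It lay inside the match in 3.9% to 10.8% of cases, and before it in 71.5% to 82.9%. In matches to miR-103a it lay inside the match in 40.4% to 59.3%, and in those to miR-19 in 17.4% to 37.0%. Other families lay nearer to the members, with 3.6% to 13.1% for miR-30 and 7.7% to 15.7% for let-7. For miR-92/25 it was 8.3% to 23.8%, and for miR-15/16 13.6% to 26.3%. The median for let-7 also lay 1 or 2 bases before the match in every library, so this position was not particular to members. No test was made of these positions.

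**Figure D3:**
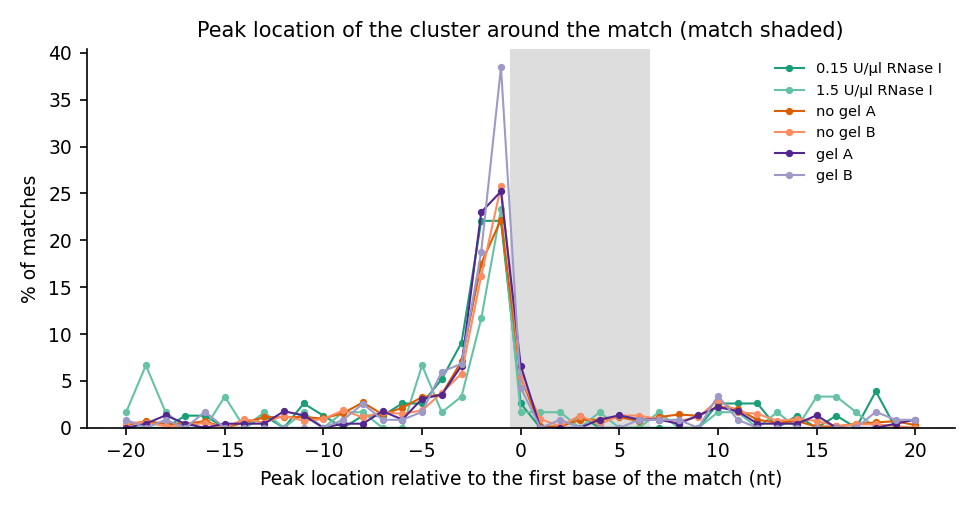
Distribution of the deposited peak location around the match, in bases from its first base (0), as percent of matches in each AGO2 library. Grey marks the 7 matched bases. In each library the highest value lies 1 or 2 bases before the match, at 22.1% to 38.5%.

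A minority of members also held a match to another expressed family, 19.7%, 11.7%, 12.3%, 13.7%, 17.3% and 17.1% in the same order of libraries. Other clusters held one in 15.3%, 10.8%, 7.13%, 9.41%, 12.1% and 18.9%. Members were thus higher in all libraries but gel B, which was not tested. A match to miR-19, another product of MIR17HG, was in 10, 5, 81, 68, 36 and 20 members. In 9, 4, 77, 64, 33 and 19 matches 3 T bases preceded the miR-17 match, so that the miR-19 letters TTTGCAC and the miR-17 letters overlap by 4 bases. No member held a let-7 match in any library. Members with 2 miR-17 matches numbered 1, 0, 3, 2, 1 and 0.

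Members fell on 832 named genes of 10838 with any AGO2 cluster outside the miRNA class (7.68%). Of these, 494 had a member in 1 library, 167 in 2, 78 in 3, 68 in 4, 21 in 5 and 4 in all 6. The 4 genes in all libraries were SHOC2, MIDN, LCOR and SMC4. SHOC2, a scaffold of the RAS to MAPK pathway, had 79 and 131 member reads at 0.15 and 1.5 U/µl, 234 and 164 in no gel A and B, and 36 and 15 in gel A and B. MIDN, midnolin, which takes nuclear proteins to the proteasome, had 19, 18, 257, 252, 69 and 22. Each had the same site in all 6 libraries, shown above. The SHOC2 site held 89.8% and 100% of the gene's cluster reads in the fluorescent libraries and 19.7% to 28.3% in the radiolabelled ones, which did not overlap. For MIDN the order was the other way, with 17.6% and 25% against 64.4% to 92.0%.

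LCOR, a corepressor of nuclear receptors, had 8, 10, 214, 119, 16 and 15 member reads, mostly from the site shown, which had 114 of the 119 reads in no gel B. At 0.15 U/µl they came from another site. SMC4, a subunit of condensin, had 8, 7, 68, 58, 13 and 12 reads, also with another site at 0.15 U/µl. The LCOR members held 34.0% to 47.1% of the gene's reads in 5 libraries and 100% in gel B. The SMC4 members held all of its reads in the fluorescent libraries and gel B.

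**Figure D4:**
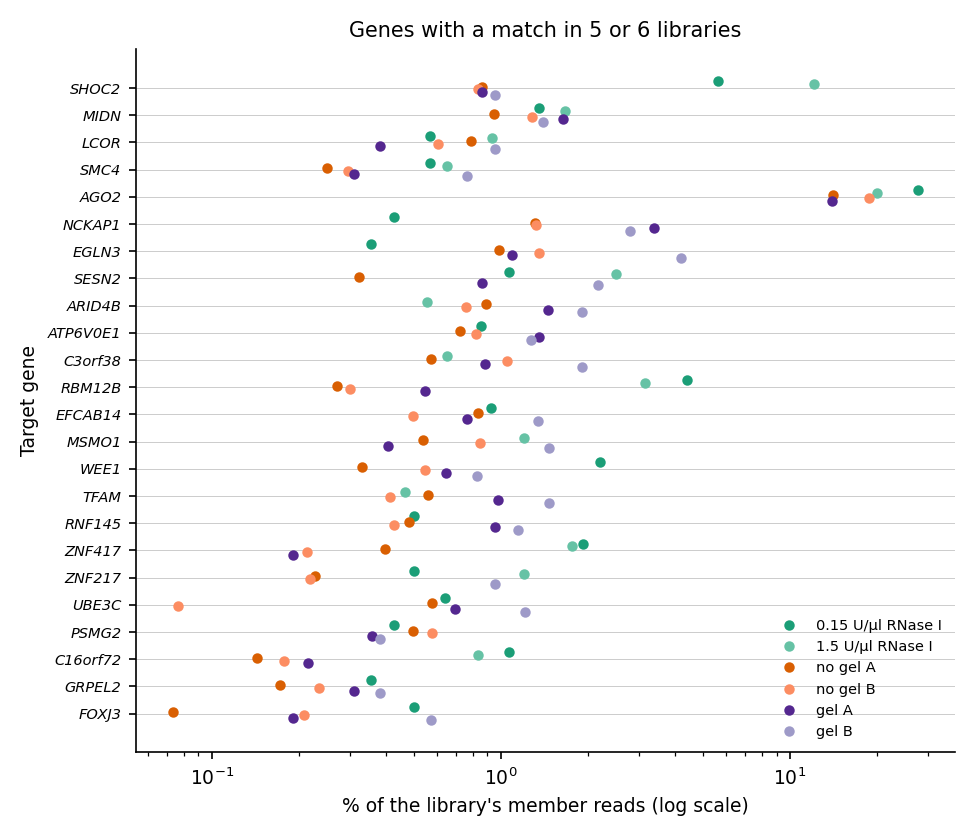
Share of each library's member reads held by 24 of the 25 genes with a member in 5 or 6 libraries, on a log axis, coloured by AGO2 library. AGO2 lies furthest right, and SHOC2 is higher in both fluorescent libraries than in the other 4.

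The 21 genes in 5 libraries spanned many functions. NCKAP1, of the actin-regulating WAVE complex, had a coding site with 352, 261, 142 and 44 reads in no gel A and B and gel A and B. At 0.15 U/µl the gene had another member of 6 reads. EGLN3, a prolyl hydroxylase of the hypoxia response, had 5 reads at 0.15 U/µl and 267, 267, 46 and 66. SESN2, a stress-induced inhibitor of mTORC1, had 15 and 27 reads in the fluorescent libraries, 88 in no gel A and 36 and 34 in gel A and B. The member made up 6.28% of SESN2 reads at 0.15 U/µl and 81.0% in gel B.

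Others were the mitochondrial DNA factor TFAM, with 5 reads at 1.5 U/µl and 152, 81, 41 and 23 in the radiolabelled libraries, and MSMO1, of sterol synthesis, with 13, then 146, 166, 17 and 23. ARID4B, a subunit of a histone deacetylase complex, had 6 reads at 1.5 U/µl and 242, 149, 61 and 30 in the radiolabelled libraries. ATP6V0E1, a subunit of the proton pump of lysosomes, had 12 reads at 0.15 U/µl and 197, 161, 57 and 20.

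Some of the 21, such as RBM12B and UBE3C, had their largest shares of gene reads in the fluorescent libraries. RBM12B had 62 and 34 reads there, 67.4% and 77.3% of the gene's reads, and 74, 59 and 23 in no gel A and B and gel A, 12.9% to 29.5%. ZNF417, a zinc finger gene, had 27 and 19 reads there and 108, 42 and 8 in those 3 libraries, 71.2% to 100% of its reads in all 5. The ubiquitin ligase genes UBE3C and RNF145 had 9 and 7 reads at 0.15 U/µl. In the radiolabelled libraries UBE3C had 157, 15, 29 and 19, so that no gel A and B differed widely, and RNF145 had 131, 84, 40 and 18. The RNF145 member held 25% of the gene's reads at 0.15 U/µl and 33.5% to 66.7% in the radiolabelled libraries. PSMG2, of proteasome assembly, had 135 and 114 reads in no gel A and B and 6 to 15 in the other 3. The others described or shown were C3orf38, EFCAB14, WEE1, ZNF217, C16orf72, GRPEL2, FOXJ3 and AGO2. C16orf72 was the one of them with intronic sites alone.

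The most-read member in 5 of 6 libraries lay in the mRNA of AGO2 itself, in coding sequence that overlaps an annotated stop codon in some libraries. It had 293 and 158 reads at 0.15 and 1.5 U/µl, 3677 and 3573 in no gel A and B, and 557 in gel A. Gel B listed no cluster over it, although it listed 10 other AGO2 clusters with 116 reads. The reads came from 248 and 127 distinct sequences in the fluorescent libraries and from 69, 83 and 45 in the radiolabelled ones. A second AGO2 member, in coding sequence, had 95 reads at 0.15 U/µl. The tagged transgene and the endogenous gene cannot be told apart in these files. Without the gene AGO2, members held 0.511% and 0.462% of reads outside the miRNA class in the fluorescent libraries, 3.86% and 4.40% in no gel A and B, and 4.12% and 5.01% in gel A and B.

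Next in the fluorescent libraries came the unannotated cluster shown above, at chr1:161523837-161523880 on the minus strand, with 131 and 147 reads. It had 18 reads in no gel A and was not listed in the other 3 libraries. In RefSeq it overlaps the transfer RNA gene TRG-GCC2-1, which spans 161523847 to 161523917, and the span of FCGR2A. LINC00116, now named MTLN in RefSeq and known for a mitochondrial micropeptide, had 792, 665, 87 and 75 reads in the radiolabelled libraries and no member in the fluorescent ones. PPP1R15B, a subunit of the phosphatase that acts on eIF2alpha, had 550 reads in no gel A, and CRK, an adaptor protein, had 104 in gel A. GLO1, which detoxifies methylglyoxal, had 55 reads in gel B.

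Reported targets of the family and genes of the microRNA pathway were read from 7 lists of 60 genes. Of these, 54 had some cluster and 26 a member, and 7 had one in 4 or more libraries. No test of the lists was made.

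In TGF-beta and BMP signalling, 4 of 6 genes had a member. TGFBR2, the type II TGF-beta receptor, had 200, 133, 70 and 14 reads in no gel A and B and gel A and B, 93.3% to 100% of its reads, and none in the fluorescent libraries. BMPR2, a BMP receptor, had 65, 51, 14 and 11 and SMAD5, its signal transducer, 56, 45, 10 and 5. SMAD4, the shared partner of these pathways, had 42 reads in no gel A and 7 in gel A. These 4 genes had members in radiolabelled libraries alone.

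In the cell cycle list 4 of 11 genes had a member. WEE1, the kinase that holds back entry into mitosis, had 31 reads at 0.15 U/µl, 90 in no gel A, 27 in gel A and 13 in gel B. These made up 20.5% to 48.1% of its reads, and in no gel B, which also listed the site, 25.2%. E2F1, a transcription factor of the S phase, had 10 and 11 reads in the fluorescent libraries alone. RB1, its repressor, had 9 reads in no gel A, 12 in gel A and 10 in gel B, and CCNG2 had 6 in no gel B. E2F1 and RB1 thus had members in no library in common.

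In the microRNA pathway list 5 of 13 genes had a member. TNRC6B, a scaffold that links Argonaute to decay enzymes, had 134, 49, 29 and 9 reads in the radiolabelled libraries, at its start codon. TNRC6C had 14, 15 and 8 in 3 of them, TNRC6A 8 in no gel A, and AGO1 12 in no gel B. Among 7 transcription regulators, HBP1, a repressor of cell cycle genes, had 95, 29 and 7 reads in 3 libraries. ZBTB4 had 5 and 11 reads in the fluorescent libraries, ZNFX1 22 and 11 without a gel, NCOA3 13, HIF1A 5 and RUNX1 6 in 1 library each.

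Of 4 autophagy genes, ULK1, the initiating kinase, had 8 and 11 reads in no gel A and gel A. The receptor SQSTM1 had 13 at 1.5 U/µl and 14 in no gel A, and ATG16L1 18 in no gel A. Of 6 survival genes, BCL2L11, which encodes the pro-apoptotic protein BIM, had 9 reads in no gel B, and TP53INP1 had 6 in no gel A. VEGFA, of the other reported targets, had 5 reads at 0.15 U/µl. These members had 5 to 18 reads. EGLN3, the other reported target with a member, is described above.

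Sites were set side by side by sequence, since the builds differ. When matches sharing at least 18 nt were joined, 1043 sites resulted, of which 667 were in 1 library, 194 in 2, 88 in 3, 73 in 4, 19 in 5 and 2 in all 6. This matching was chosen after seeing the data, since the planned one, on 7 flanking bases each side, could not be used for 1173 matches that lay near a cluster's end, and gave 353 sites with 23 in 4 or more libraries against 94. The fluorescent libraries shared 22 sites, 28.6% of those at 0.15 U/µl and 36.7% of those at 1.5 U/µl. Of the 117 matches in gel B, 89.7% were also in no gel A and 71.8% in gel A. In no gel A 15.0% were in gel B, the library with the lowest total of reads. Sites in 4 or more libraries had a median of 88 and 73 reads in no gel A and B, against 8 and 7 for sites seen in 1 library. To be in 4 or more, a site had to reach 5 reads in libraries with fewer reads in all. Higher reads in no gel A and B are thus partly built into this grouping. Under the same grouping, the 3' UTR share in no gel A and B was 66.7% and 67.0% for sites in 4 or more libraries. For sites in 1 library it was 36.8% and 36.7%. The fluorescent libraries did not show this contrast to the same extent, with 77.8% against 68% at 0.15 U/µl and 75% against 75% at 1.5 U/µl.

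Between the RNase I doses, there was 1 library each and no replicate check. Genes with at least 5 member reads in both libraries numbered 25, and their reads were set over all cluster reads. The median log2 ratio of 0.15 over 1.5 U/µl was 0.26, against 0.27 over 684 genes tested. Past 2-fold lay 6 of 25 members (24.0%), all higher at 0.15 U/µl, against 31.6% of all genes either way, of which 146 were higher and 70 lower. Over reads outside the miRNA class the member median was -0.01, and 3 of 25 members lay past 2-fold against 29.8% of all genes. These were CLPTM1 (1.49) and KIF23 (1.45) toward 0.15 U/µl and ZBTB4 (-1.23) toward 1.5 U/µl. These values compare 2 libraries, not the doses.

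The genes furthest toward 0.15 U/µl were CLPTM1, with 21 against 7 reads (log2 ratio 1.77, exact 95% binomial interval 0.48 to 3.25), and KIF23, a kinesin of cytokinesis, with 35 against 12 (1.73, 0.75 to 2.81). ZBTB18 (10 against 5 reads), CSNK1A1 (30 against 16) and RBM12B (62 against 34) had log2 ratios of 1.18, 1.09 and 1.05. The interval of ZBTB18, -0.50 to 3.08, held 0. AGO2, with 388 against 216 reads, was the sixth past 2-fold (1.03). Toward 1.5 U/µl lay ZBTB4 (-0.95), ZNF217 (-0.71), SCML2 and SESN2 (both -0.67) and SHOC2 (-0.55). SHOC2 was the one of the 25 genes with an interval wholly below 0, at -0.97 to -0.13, against 11.5% of all genes. Wholly above 0 were 6 of 25, against 24.1% of all genes.

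The gel comparison was the one with replicates, 2 libraries per group. Member clusters were 1.80% and 2.39% of clusters without a gel and 3.45% and 5.44% with it. The groups did not overlap, and the exact permutation test gave p = 0.3333, the smallest that 2 against 2 allows. The order turned when a minimum share of library reads was matched over the 4 libraries, to 9.87% and 9.28% without a gel against 7.24% and 5.44% with it. The 3' UTR share of members, 47.8% and 50.4% without a gel and 59.1% and 63.2% with it, turned in the same way, to a mean 2.41 points higher without a gel. The shares of reads held by members overlapped between the groups (exact permutation p = 1.00).

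Region by region, 1 member differed between the groups. Clusters of the 4 libraries were merged into 57022 regions, 985 of them with a match, and 86 member regions were among the 1085 with a cluster in each library. edgeR called 8 of 1085 regions at an adjusted p under 0.05 (0.737%) and 1 of the 86 members. At an unadjusted p under 0.05 edgeR gave 9 of 86 members, against 11.9% of all regions. DESeq2 called no region, with 8 of 86 members at an unadjusted p under 0.05, against 5.81% of all regions. The called member was in LINC00116, with 1092 and 1212 TMM-scaled RPM (reads scaled to a common library size) without a gel and 459 and 705 with it. It rose without a gel by 1.01 ± 0.26 (log2, SE; edgeR adjusted p = 0.0361).

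**Figure D5:**
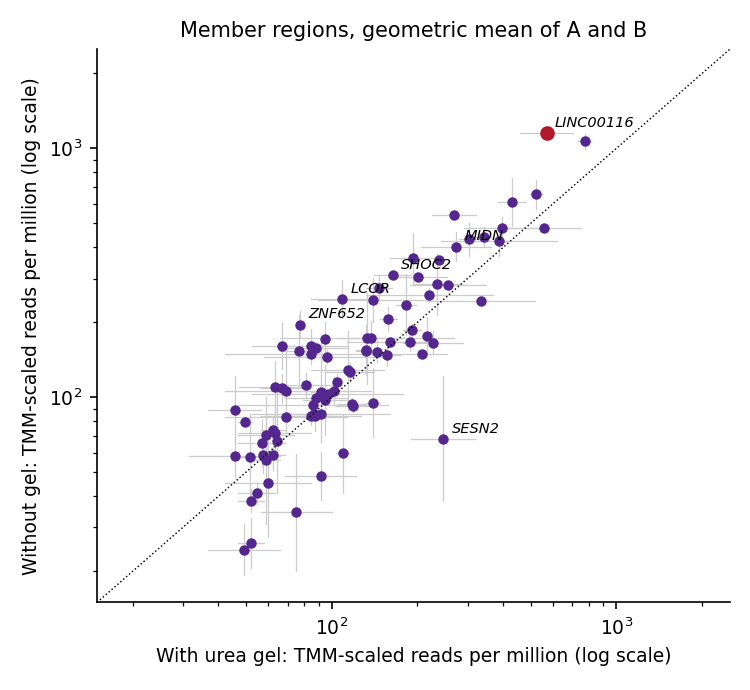
TMM-scaled RPM of the 86 member regions with a cluster in all 4 radiolabelled libraries, with the gel (x) and without it (y), on log axes. Points are geometric means of libraries A and B, grey lines run between A and B, the dotted line marks equality, and red marks the called region in LINC00116.

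The call in LINC00116 was not kept with DESeq2 (adjusted p = 0.0804, log2 difference 1.02), with total reads in place of TMM (0.468, log2 difference 0.47), with distinct sequences in place of reads (0.552, log2 difference 0.40) or with the A and B letters as a replicate block (edgeR adjusted p = 0.109, log2 difference 1.02). It was also lost without no gel A, no gel B or gel A (0.123, 0.226 and 0.197, log2 difference 1.09, 0.95 and 0.84), and kept without gel B (9.43e-05, 1.56). With distinct sequences 1 other member was called, and without no gel B the call fell on RB1 (edgeR adjusted p = 0.0127, log2 difference -2.54).

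Among the other members furthest toward the libraries without a gel were ZNF652 (log2 difference 1.35), the transcription factor gene NFIB (1.31), LCOR (1.22), TMEM167A (1.06) and KLHL36 (1.01). Toward the libraries with a gel were SESN2 (-1.62), UEVLD (-0.97) and CMPK1 (-0.91), a pyrimidine nucleotide kinase, together with AGFG1 (15 and 18 reads without a gel, 11 and 5 with it) and MAK16 (43 and 11, 19 and 6). In the ZNF652 region the match lay in the cluster of 1 library only. None of these passed, with edgeR adjusted p from 0.0610 to 0.596. SESN2 had 121 and 38.3 TMM-scaled RPM without a gel and 190 and 320 with it. The cluster in no gel B there, of 21 reads, did not hold the match. SESN2 and MAK16 were called without no gel A (edgeR adjusted p = 0.00685 and 0.0327), and LCOR without gel B (0.0342).

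The 86 member regions had a median log2 difference of 0.19, against -0.02 over all 1085. Above 0 were 56 and below 0 were 30, but with total reads in place of TMM 24 were above and 62 below, as the median of all regions moved to -0.51. On the TMM scale the groups did not overlap for 37 of 86 members, against 42.1% of all regions. SHOC2 lay at 0.88 (edgeR adjusted p = 0.290), MIDN at 0.47 and NCKAP1 at -0.30 (0.630 and 0.746). TGFBR2 and EGLN3 lay close to 0 (-0.02 and 0.03, edgeR adjusted p = 0.989 and 0.980). Regions needed a cluster in each library, which 8.73% of the regions with a match and 1.90% of all regions had.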

How the data were processed

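The members and gene lists were chosen with earlier results of these data known. Per the file headers, the authors deposited clusters per library with the count of reads, of distinct sequences and of conversion events, a T-to-C fraction, and other values such as the peak location. Per the submitters' processing notes, bcl2fastq 2.20.0, cutadapt 1.15 and hg38 were used. The aligner, cluster caller and annotation are not given in the sources used here. Of 22 sites shared by the fluorescent libraries 22 had the same coordinate, but none shared with the radiolabelled ones did, so those lie in another build.

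Seeds came from the RefSeq miRNA table, and matches were read in the cluster sequences. Read totals over clusters ranged from 77572 to 929424 in the AGO2 libraries. Shares carry 95% Wilson intervals. Members and other clusters were compared by two-sided exact sign-flip tests over 6 libraries. For the gel comparison, same-strand clusters that overlapped by 1 nt or more were merged, and regions with a cluster in each library and 10 or more summed reads were tested with edgeR 4.0.16 (quasi-likelihood, TMM, Benjamini-Hochberg, library sizes over all clusters) in R 4.3.3, with DESeq2 1.42.0 as an alternative. In simulated data for that comparison 170 of 200 changed regions were recovered among 1085. The planted changes were all larger than any difference of a member region in the main edgeR fit. Their spread was set in advance and not taken from the data. Recovery of smaller changes was not tested. The A and B letters were not taken as pairs, since deviations correlated at 0.03. Named were genes in all 6 libraries, the 3 most-read members per library, called regions, the 5 furthest each way in the gel and dose comparisons, and listed genes with a member. The 21 genes in 5 libraries were added after their values were seen. The 4 other AGO2 samples were not analysed here, and 1 gene that the rule names is not reported here. Alternatives covered the match length, read and sequence minimums, region sets, scaling, site matching and left-out libraries.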

Additional observations from a re-analysis of the deposited data

How the results depend on the processing

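The share of clusters that are members moved with the definition of the match and the minimum of reads. With bases 2 to 7 alone it was 4.6%, 3.71%, 3.61%, 4.56%, 5.67% and 8.24% (0.15 and 1.5 U/µl, no gel A and B, gel A and B). With an A required after bases 2 to 8 it was 1.36%, 0.996%, 0.737%, 0.954%, 1.56% and 2.19%. With bases 2 to 7 and A it was 1.88%, 1.40%, 1.28%, 1.69%, 2.36% and 3.49%. Among clusters of at least 10 reads it was 2.61% at 0.15 U/µl, 2.91% and 4.15% in no gel A and B, and 6.69% and 8.14% in gel A and B. With a matched minimum share of reads it was 2.37%, 1.29%, 9.87%, 9.28% and 7.24% in all but gel B. With at least 3 distinct sequences it was 3.60%, 3.81%, 4.96% and 6.64% in the radiolabelled libraries. Within 3' UTRs it was 6.18%, 6.21% and 1.97% at 0.15 and 1.5 U/µl and in no gel A. For members against other clusters the adjusted p could hardly pass 0.05 in any setting, since the exact p cannot go below 0.03125, or below 0.0625 with 1 of the 6 libraries left out. That no call changed therefore says nothing about stability.

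In the gel comparison, differences are without minus with the gel. The share of clusters differed by -2.35 points, by -3.88 with at least 10 reads and by 3.23 with the matched minimum, which turned the direction. The share of reads, 0.05 points, became 3.14 with the matched minimum and -0.42 without the gene AGO2, and ran from -0.41 to 0.52 with 1 library left out. The 3' UTR share, -12.1 points, was -8.04 with at least 10 reads and 2.41 with the matched minimum. Median reads differed by 8.75 with at least 10 reads and by 73.5 with the matched minimum. That minimum was 60 and 40 reads in no gel A and B but 12 and 5 in gel A and B. The difference of 73.5 was thus largely built in by the cut-offs. The share followed by A, -2.25 points, ran from -4.73 to 0.23 with 1 library left out, and turned without gel A. The cause of the other differences was not tested.

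Member regions called were 0 with DESeq2, total reads, no need for a cluster in each library, gene sums, the matched minimum or the replicate block, and 2 with miRNA clusters left out or with library sizes over the tested regions, the setting first used and replaced after its result (SESN2 was the second member) was seen. With the replicate block 1 region was called in all, with gene sums 3 and with DESeq2 0. With 1 library left out 0 to 4 members and 3 to 32 regions were called. Where this leaves 1 library in a group, that library is assumed to vary like the others. SESN2 was called with miRNA clusters left out (adjusted p = 0.0292) and without no gel A (0.00685).

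Sites in 4 or more libraries were 23 with 7 flanking bases, 48 with 5, 8 with 9 and 94 by shared stretches. The stretches, clusters of 20 to 40 nt, the gene AGO2 left out and the dose denominators were alternatives chosen after seeing the data. Clusters under 5 reads cannot be judged in any library.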
